A study of Mustela putorius furo and Mus musculus with 4 samples.

Results

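Genes of the inhibitory neuron lineage were followed through single-cell transcriptomes of the embryonic cortex. The 9 genes were taken by symbol: the homeobox genes Dlx1, Dlx2, Dlx5, Dlx6 and Gsx2, the GABA-synthesizing enzymes Gad1 and Gad2, and the zinc finger genes Sp8 and Sp9. All 9 were found among the 17170 genes of the mouse table, and all 9 in upper case among the 22008 genes of the ferret table. The mouse data came from E18 cortex of strain CD1, from hGFAP-Cre;Smo F/F embryos (Smo-cKO) and from littermate Smo F/F controls, which carried the floxed allele without Cre and which the labels call wild type. The hGFAP promoter drives Cre in cortical radial glia (RG), so that Smo, the signal transducer of Sonic hedgehog, is lost from RG and the cells they produce, while cells that enter the cortex from elsewhere carry the deletion only if their own progenitors had Cre. A dye (CellTrace Yellow in the methods, Flash-Tag in the labels) was injected into the lateral ventricle at E17 and labeled cells were sorted at E18, so that the share of a cell type also depends on the sort. The ferret data came from the bilateral cortex of 1 wild type E39 embryo without a sort, in 2 barcode sets that could not be tied to the 2 labelled samples.

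Each genotype had 1 library, and the number of animals behind it was not given in the sources used here. Cells are not replicates, so that no test between genotypes was possible: intervals in the text are 95% intervals of counting error only, and a gene was called higher or lower when its level differed at least 2-fold and it had at least 20 UMIs in both groups together. The level is the sum of UMIs of a gene per 1000000 UMIs of the same cells (CPM). It is not divided by transcript length, and levels of different genes are therefore not compared. After the limits on genes and mitochondrial reads, 10498 control and 7209 Smo-cKO cells remained, with medians of 4033.5 and 4836 UMIs, and the shallowest cell held 2454 UMIs in the control and 1068 in Smo-cKO. Only 28 cell barcodes were shared between the mouse libraries. Which library was the control rested on its number of cells, which equals the number stated for that genotype. If that assignment were wrong, every direction between genotypes would be reversed. Smo UMIs were found in 7.67% of control but 0.28% of Smo-cKO RG-like cells, and in 2.44% and 0.35% of IN-like cells. Prm1, a sperm protamine gene, was detected in 87.9% of RG-like cells of Smo-cKO and in 6.57% of its IN-like cells, and in none of the control cells of either class.

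Inhibitory interneurons (IN) of the cortex are born mainly outside it, in the ganglionic eminences below. There Gsx2 acts early in progenitors, Dlx1 and Dlx2 follow and induce Dlx5 and Dlx6, and GAD67 and GAD65, the products of Gad1 and Gad2, make GABA in the neurons. Sp8 and Sp9 act as neurons of the lateral and caudal eminences and of the medial eminence differentiate, and Sp8 also patterns the early cortex. Late cortical RG produce basal multipotent intermediate progenitor cells (bMIPCs), which express Egfr and Olig2 and give rise to glia and to a subpopulation of olfactory bulb interneurons, beside the intermediate progenitors (PyN-IPCs) of pyramidal neurons (PyNs).

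The Dlx genes lie in inverted pairs. On mouse build GRCm38 (GENCODE annotation), Dlx1 occupies chr2:71528113-71533981 on the plus strand and Dlx2 chr2:71543408-71546754 on the minus strand, 9427 bases apart. Dlx6 lies at chr6:6863334-6868568 (plus) and Dlx5 at chr6:6877805-6882085 (minus), 9237 bases apart. Gsx2 is at chr5:75075601-75077893, Gad1 at chr2:70553072-70602014, Gad2 at chr2:22622205-22693874, Sp8 at chr12:118846329-118852576 and Sp9 at chr2:73271925-73284706, all on the plus strand. An annotated gene on the opposite strand overlaps Dlx1 (Dlx1as), Dlx6 (Dlx6os1 and Dlx6os2), Gad1 (Gad1os) and Sp9 (Cir1). The strand setting of the counting was not given, so that reads of these pairs may not be fully separated.

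The 5 homeobox genes share the helix by which a homeodomain reads DNA, and the coding bases around it are shown because they set the Dlx genes beside Gsx2. Each stretch is 48 bases of the longest coding transcript, 5′ to 3′, and the capitals mark the 18 bases of the recognition-helix motif.
Dlx1: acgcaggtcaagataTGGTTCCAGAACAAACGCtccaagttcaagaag
Dlx2: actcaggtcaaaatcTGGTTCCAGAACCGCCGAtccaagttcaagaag
Dlx5: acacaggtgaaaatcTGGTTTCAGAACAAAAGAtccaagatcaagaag
Dlx6: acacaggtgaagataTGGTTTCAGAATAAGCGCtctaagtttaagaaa
Gsx2: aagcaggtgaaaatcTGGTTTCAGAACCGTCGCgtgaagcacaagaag
Among the Dlx genes the 48 bases were 72.9 to 85.4% identical, with Dlx1 and Dlx2 the most alike. Gsx2 shared 68.8% with Dlx6 and 77.1% with Dlx2.

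Cells were clustered without the 9 genes and classed by other markers. In the mouse, the IN-like class came from 2 clusters with 10 and 8 of the 15 IN markers raised, and it held 164 control and 289 Smo-cKO cells. They are called Npas1-led and Lhx6-led after a gene among the 10 leading genes of each. The first genes were Dlx6os1 and Dlx1 in the Npas1-led cluster and Maf in the Lhx6-led one. The bMIPC-like class came from 1 cycling and 1 non-cycling cluster, with Egfr, Olig1 and Olig2 raised in both, and held 1383 control and 313 Smo-cKO cells. The class also carried PyN-IPC markers. In its control cells with fewer than 3 of the 9 genes these summed to 925 CPM, beside 660 CPM of bMIPC markers. The sums were 710 and 662 CPM in such Smo-cKO cells. Shares and ratios of this class are therefore those of a mixed group. RG-like cells numbered 2007 and 1454, and PyN-like cells 3749 and 3182. No doublets were removed. Median UMIs in control and Smo-cKO were 3141.5 and 3010 in IN-like cells, 6037 and 9500 in bMIPC-like cells, 4828 and 7187 in RG-like cells, and 3173 and 3916 in PyN-like cells.

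Of the named classes, IN-like cells had the highest level of every member but Gsx2, which was highest in bMIPC-like cells. Summed over the 9 genes, the level was 1201 CPM in control and 1976 CPM in Smo-cKO IN-like cells, and 83.0 and 90.5 CPM in bMIPC-like cells. It was 18.1 and 9.41 CPM in RG-like cells, 4.95 and 6.16 CPM in PyN-IPC-like cells, 6.51 and 8.90 CPM in PyN-like cells, and 0 and 3.27 CPM in microglia-like cells. Over both libraries, an unnamed cluster of 71 cells led by Cxcl10 and Chac1 held 87.8 CPM, and an unnamed one of 315 cells led by Cenpa held 38.8 CPM. PyN-like and microglia-like cells should lack these transcripts, so that a share of cells at or below theirs was read as background. At least 1 of the 9 genes was detected in 93.3% of IN-like cells of the control and 98.6% of those of Smo-cKO, whereas 97.9% and 96.6% of PyN-like cells had none.

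**Figure D1:**
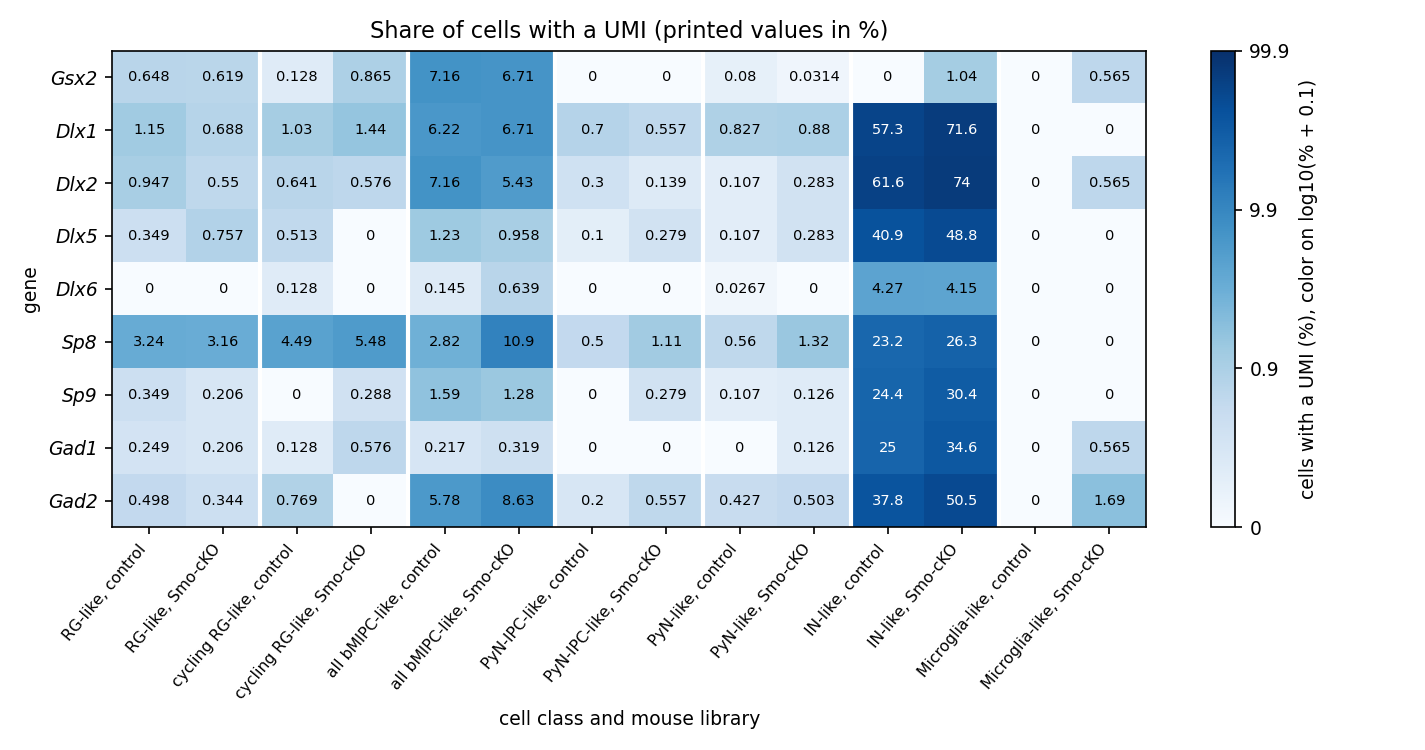
Heat map of the share of cells (percent, printed in each field, color on a log scale of percent + 0.1) with at least 1 UMI of each of the 9 genes (rows), by cell class and mouse library (columns). Dlx1 and Dlx2 reach 57.3 to 74.0% of IN-like cells, and Gsx2 has its highest shares, 7.16% and 6.71%, in bMIPC-like cells.

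Gsx2, the earliest of the set in the lineage, was a progenitor transcript. Among bMIPC-like cells it was detected in 7.16% of the control (interval 5.86 to 8.65) and 6.71% of Smo-cKO, at 16.6 and 18.2 CPM. In RG-like cells the share was 0.648% and 0.619%. In IN-like cells Gsx2 had 0 UMIs in the control and 3 UMIs in Smo-cKO, so that it ran opposite to the rest of the set.

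Dlx1 and Dlx2, which act downstream of Gsx2, were found in both progenitors and neurons. In bMIPC-like cells Dlx1 was detected in 6.22% of control and 6.71% of Smo-cKO cells, and Dlx2 in 7.16% and 5.43%. PyN-like cells had Dlx1 in 0.827% and 0.880% and Dlx2 in 0.107% and 0.283%. The Dlx1 share of RG-like cells was 1.15% in the control (0.728 to 1.71), above the PyN-like share but with an overlapping interval (0.563 to 1.17), and 0.688% in Smo-cKO, below it. In IN-like cells Dlx1 was detected in 57.3% and 71.6% and Dlx2 in 61.6% and 74.0%.

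Dlx5 and Dlx6, the later pair, differed in detection. Dlx5 was present in 40.9% of control and 48.8% of Smo-cKO IN-like cells but in 1.23% and 0.958% of bMIPC-like cells. Dlx6 reached 4.27% and 4.15% of IN-like cells, at 10.9 and 14.1 CPM, and had 0 UMIs in RG-like cells, which limits the cells with a UMI to 0.149% in the control and 0.206% in Smo-cKO, but not the cells that express it. Its overlap with the antisense genes Dlx6os1 and Dlx6os2 makes the Dlx6 count uncertain. Dlx6os1 itself stood at 380 and 690 CPM in IN-like cells.

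The enzymes differed between progenitors and neurons. Gad1, which encodes GAD67, was detected in 25.0% of control and 34.6% of Smo-cKO IN-like cells and in 0.217% and 0.319% of bMIPC-like cells. Gad2, which encodes GAD65, was detected in 37.8% and 50.5% of IN-like cells and also in 5.78% and 8.63% of bMIPC-like cells. In PyN-like cells Gad1 was seen in 0 and 0.126% and Gad2 in 0.427% and 0.503% of cells. Slc32a1, the vesicular GABA transporter, was at 71.9 and 131.5 CPM in IN-like cells.

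Of the zinc finger genes, Sp8 was detected in 23.2% of control and 26.3% of Smo-cKO IN-like cells, and Sp9 in 24.4% and 30.4%. Sp8 was the member with the highest share in RG-like cells, 3.24% and 3.16%, above the 0.560% and 1.32% of PyN-like cells. In bMIPC-like cells Sp8 reached 2.82% (2.01 to 3.83) in the control and 10.9% (7.64 to 14.8) in Smo-cKO, and Sp9 1.59% and 1.28%.

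Most measured members were higher in bMIPC-like than in RG-like cells. Among all genes with enough UMIs in the control, 6.95% were at least 2-fold higher in bMIPC-like cells, and 5 of the 7 measured members were: Gsx2 10.1-fold, Gad2 11.1-fold, Dlx2 9.63-fold, Sp9 5.63-fold and Dlx1 5.07-fold. Sp8 had a ratio of 0.712. In Smo-cKO, where 7.31% of all genes were higher, 5 of 5 measured members were, from 3.10-fold (Sp8) to 25.8-fold (Dlx2). The summed ratio was 4.58 (3.92 to 5.38) in the control and 9.62 (7.67 to 12.1) in Smo-cKO.

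From bMIPC-like to IN-like cells, 7 of 8 measured members were higher in either library and 1 of 8, Gsx2, was lower. Of all genes, 16.9% were higher and 18.3% lower in the control, and 18.9% and 18.5% in Smo-cKO. The ratios of Dlx2 and Gad2 were 12.3 and 13.2 in the control and 20.1 and 20.8 in Smo-cKO, and those of Dlx5 were 74.0 and 184.1. The Gad1 ratios, 193.6 in the control and 493.1 in Smo-cKO, rest on 4 and 1 UMIs in bMIPC-like cells, and those of Dlx5 on 19 and 4. In the control the Gad1 interval (71.4 to 736) overlapped that of Dlx5 (44.9 to 128). Gad1 and Dlx5 reached 20 UMIs only through the IN-like cells and Gsx2 only through the bMIPC-like cells, so that the counts are a description only. Against PyN-like cells, 7 of 7 measured members were higher in IN-like cells of both libraries, beside 8.57% and 8.85% of all genes. Only Dlx1 and Sp8 reached 20 UMIs in PyN-like cells, with ratios of 123 and 63.4 in the control and 253 and 48.6 in Smo-cKO. The other measured members passed only through the IN-like cells, which held far fewer UMIs in total. Their direction therefore followed from the rule, and the share of all genes is not a like-for-like measure for this count.

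The bMIPC-like cells with an early member were a minority. In the control, the 186 bMIPC-like cells with a UMI of Gsx2, Dlx1 or Dlx2 had Olig2, a factor of the glial lineage, in 46.2% of cells against 29.3% of the 1197 cells without. Olig1 was found in 34.4% against 21.4%, and Egfr, a growth factor receptor of late progenitors, in 44.1% against 28.7%. Eomes, which marks PyN-IPCs, was found in 28.0% against 54.0%, and Neurod6, a gene of pyramidal neurons, in 21.5% against 45.4%, both picked with their values known. The median depth was 6605.5 against 5953 UMIs, and its part in these shares was not tested. In Smo-cKO, with only 31 such cells against 282, Egfr was found in 41.9% and 29.1%, Eomes in 16.1% and 41.8%, and Olig1 in 19.4% and 30.1%.

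**Figure D2:**
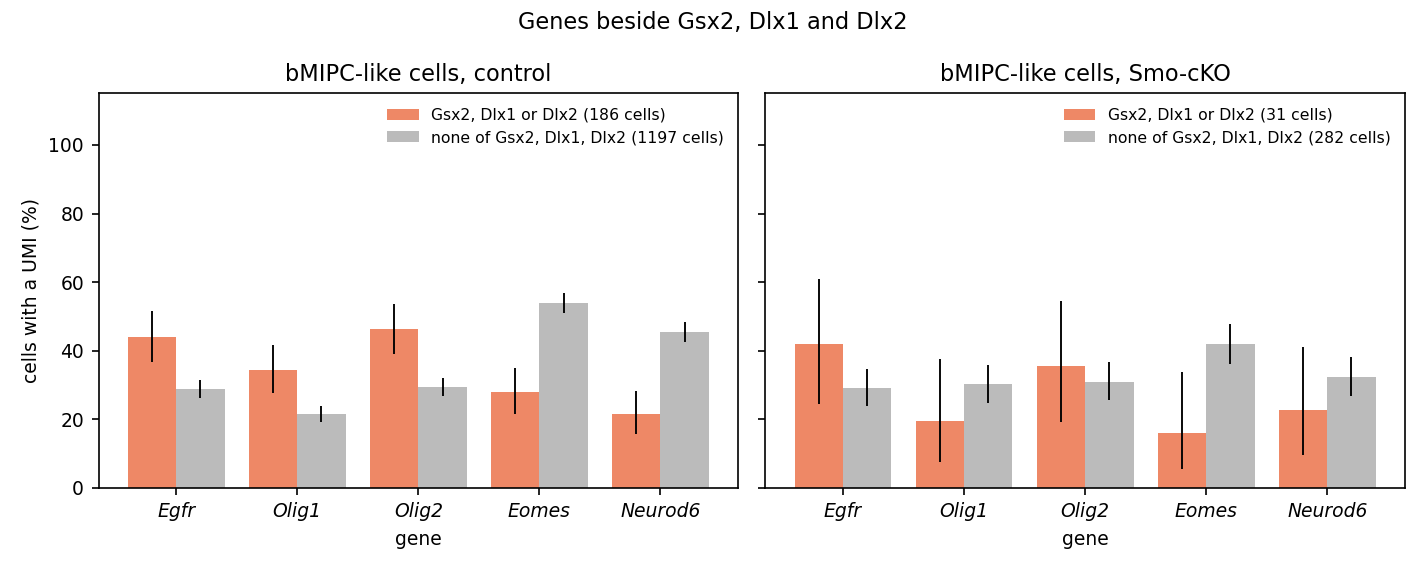
Bars give the share of bMIPC-like cells (percent) with a UMI of each of 5 partner genes, in cells with a UMI of Gsx2, Dlx1 or Dlx2 (orange) and in cells with none of them (gray), for each mouse library, and lines are exact 95% intervals of counting error. In the control, Olig2 is at 46.2% against 29.3% and Eomes at 28.0% against 54.0%.

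The early genes were found in the same cells. Of control bMIPC-like cells with Dlx1, 59.3% also had Dlx2 (51 of 86), against 3.70% of those without Dlx1. Of those with Gsx2, 39.4% had Dlx2 (39 of 99) against 4.67%, and 57.6% had Olig2 against 29.6%. Gad2 was less tied to them: 20.0% of the cells with Gad2 had Gsx2 (16 of 80) against 6.37%, and Eomes was at 55.0% against 50.2%. Gad2 was also the only measured member that differed at least 2-fold between the cycling and the non-cycling bMIPC-like cluster. It was found in 8.50% of cycling against 2.18% of non-cycling cells of the control, with a ratio of levels of 3.35 (1.92 to 6.24), and was 1 of 6 members past 2-fold, beside 4.64% of all genes. In Smo-cKO the levels were 17.2 against 5.48 CPM (1 of 5, beside 5.97%).

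Counting members per cell separated the classes further. At least 3 of the 9 genes were detected in 56.1% of IN-like cells in the control (48.1 to 63.8) and in 76.5% in Smo-cKO (71.1 to 81.2). In bMIPC-like cells 81.3% and 76.0% had none, and 3.69% and 5.75% had at least 3. The cells with at least 3, picked by these UMIs, held a large part of them: 51 of 1383 control cells held 413 of 761 member UMIs (54.3%), and 18 of 313 Smo-cKO cells held 191 of 289 (66.1%). In the control their other IN markers summed to 551 CPM against 214 CPM in the remaining bMIPC-like cells, their bMIPC markers to 881 against 660 CPM, and their median depth was 7637 against 5981.5 UMIs. In Smo-cKO the IN markers summed to 344 against 260 CPM and the bMIPC markers to 638 against 662 CPM. The part of doublets in these cells was not tested.

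**Figure D3:**
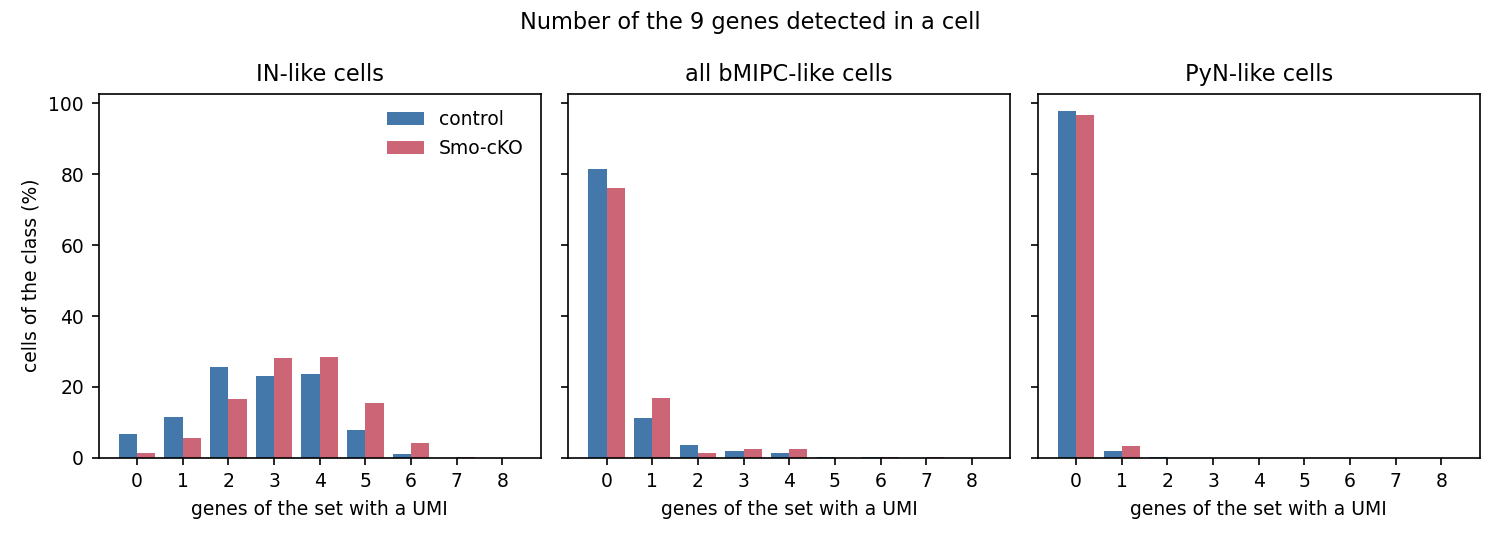
Bars give the share of cells (percent) by the number of the 9 genes with a UMI in a cell, for IN-like, bMIPC-like and PyN-like cells of the control (blue) and the Smo-cKO (red) library. The most common number in IN-like cells is 2 in the control (25.6%) and 4 in Smo-cKO (28.4%), while most cells of the other classes have 0.

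Between genotypes, IN-like cells took a larger share of the Smo-cKO library, 4.01% (3.57 to 4.49) against 1.56% (1.33 to 1.82). No control cell was shallower than 2454 UMIs, and 86 of the 289 Smo-cKO IN-like cells were. With all 418 such Smo-cKO cells left out, the share was 2.99% (2.60 to 3.42). Microglia-like cells also took a larger share of the whole Smo-cKO library, 2.46% against 0.924%, while bMIPC-like cells took a smaller one, 4.34% against 13.2%. The genotype cannot be told apart from the embryos, the sort or the preparation of a library.

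Within IN-like cells, members were higher in Smo-cKO by less than 2-fold. Dlx1 stood at 309.6 CPM in the control and 526.2 CPM in Smo-cKO, a ratio of 1.70 (1.44 to 2.02). Dlx2 stood at 301.8 and 459.9 CPM (1.52, 1.28 to 1.82), and Dlx5 at 153.2 and 230.5 CPM (1.50, 1.18 to 1.93). The enzymes and zinc finger genes had the same direction. Gad1 was at 84.4 and 154.4 CPM (1.83, 1.33 to 2.55) and Gad2 at 147.0 and 260.9 CPM (interval 1.39 to 2.28). Sp8 was at 98.5 and 158.7 CPM (1.61, 1.19 to 2.20) and Sp9 at 95.4 and 168.5 CPM (1.77, 1.31 to 2.42). The interval of Dlx6 included 1 (1.29, 0.479 to 3.82). None of the 8 measured members passed 2-fold (0 of 8), where 3.17% of all genes were higher and 3.23% lower. The median log2 ratio was 0.73 over the members and 0.04 over all genes, and the summed ratio was 1.65 (1.51 to 1.79).

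The direction also held when cells were thinned to the same depth. Thinning covered only cells with at least 2000 UMIs, all 164 control but 233 of the 289 Smo-cKO IN-like cells. At 2000 UMIs per cell, Dlx1 was expected in 41.5% of these control and 60.0% of these Smo-cKO cells, Dlx2 in 44.6% and 60.7%, and Gad2 in 25.7% and 39.9%. The other IN markers stood at 2418 and 3252 CPM (ratio 1.35, 1.26 to 1.43), and PyN-IPC markers in the same cells at 625 and 195 CPM. IN-like cells without any PyN-IPC marker UMI made up 52.4% (86 of 164) of control and 81.7% (236 of 289) of Smo-cKO IN-like cells. In these cells the members stood at 1728 and 2206 CPM, a ratio of 1.28 (1.15 to 1.42), while the other IN markers had a ratio of 0.916 (0.850 to 0.988). There Dlx1 kept a ratio of 1.40 (1.12 to 1.75), Dlx2 had 1.14 (0.921 to 1.41) and Dlx5 1.02 (0.763 to 1.37).

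**Figure D4:**
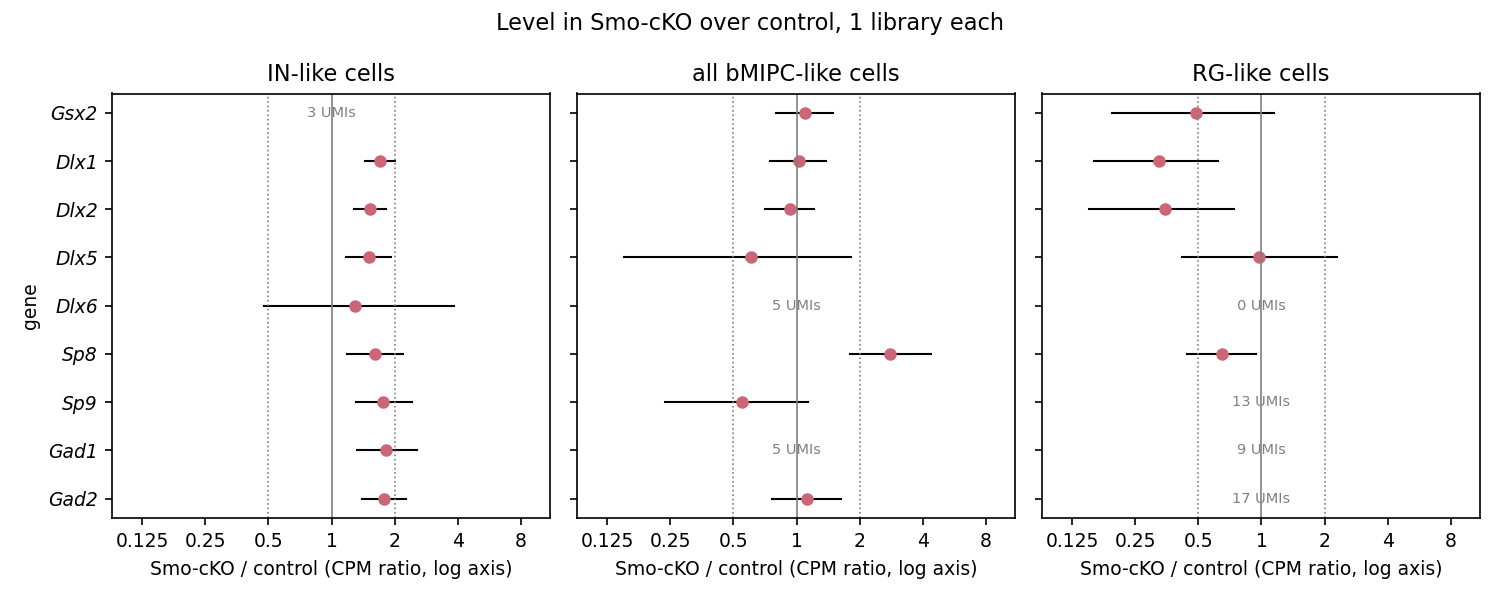
Points give the ratio of the level in Smo-cKO to that in control (CPM over CPM, log axis) for each gene in IN-like, bMIPC-like and RG-like cells, with exact 95% intervals of counting error as lines, dotted lines at 0.5 and 2, and the number of UMIs in place of a point for genes under 20 UMIs. In IN-like cells the points lie between 1.29 and 1.83, in bMIPC-like cells Sp8 lies past 2, and in RG-like cells Dlx1 (0.325) and Dlx2 (0.348) lie below 0.5.

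In bMIPC-like cells the sum did not differ beyond counting error, with a ratio of 1.09 (0.949 to 1.25). Dlx1 was at 18.0 and 18.5 CPM, Dlx2 at 24.5 and 22.9 CPM, and Gsx2 had an interval of 0.795 to 1.49. Sp8 passed 2-fold, with 44 UMIs (4.80 CPM) in the control and 43 UMIs (13.5 CPM) in Smo-cKO, an interval of 1.80 to 4.37. It was 1 of 7 measured members past 2-fold, beside 3.36% of all genes higher, and 0 of 7 were lower, beside 3.07%. The depth per cell was higher in Smo-cKO, and after thinning the Sp8 share was 0.921% and 2.77%. Sp8 was also past 2-fold in PyN-like cells, with 21 and 44 UMIs (2.10, 1.22 to 3.72, 1 of 3 measured members, beside 2.13% of all genes), and in unnamed cells (3.03, 1.58 to 5.99, 1 of 3, beside 4.35%). The class itself held 1383 control but 313 Smo-cKO cells.

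In RG-like cells the few member UMIs were fewer in Smo-cKO, 106 against 199, a summed ratio of 0.519 (0.406 to 0.661). Dlx1 fell from 3.55 to 1.15 CPM (0.325, 0.159 to 0.622), Dlx2 from 2.55 to 0.887 CPM (0.348, 0.151 to 0.738) and Gsx2 from 1.64 to 0.799 CPM (0.487, 0.193 to 1.14). These were 3 of 5 measured members at least 2-fold lower, beside 2.7% of all genes, and 0 of 5 were higher, beside 3.69%. The intervals of the Dlx1 share of RG-like and PyN-like cells overlapped in both libraries. Dlx5 had a ratio of 0.975 and Sp8 one of 0.646 (0.441 to 0.939). The UMIs were unevenly spread: 11 control cells with at least 3 members, picked by those UMIs, held 72 of the 199, and their other IN markers summed to 836 CPM against 214 CPM in the remaining RG-like cells. In Smo-cKO 2 such cells held 15 of 106 UMIs. Without these cells the members stood at 11.6 CPM in the control and 8.09 CPM in Smo-cKO. The share of RG-like cells with at least 1 member was not lower in Smo-cKO, 5.78% against 5.43%, at median depths of 7187 and 4828 UMIs. The intervals of the ratios treat each UMI as independent. In the Aldoc-led RG-like cluster the sum was 25.9 CPM in the control and 10.8 CPM in Smo-cKO, and 3 of 4 measured members were lower, beside 2.81% of all genes. In the RG-like cluster led by 1500015O10Rik it was 12.6 and 9.24 CPM (0.730, 0.476 to 1.11), and 0 of 1 measured members were lower, beside 2.65%. At a finer cluster resolution of 1.6 the summed ratio was 0.666 and 1 member was lower. Cycling RG-like cells, a separate class of 780 control and 347 Smo-cKO cells, had a summed ratio of 0.891 (0.593 to 1.32). There 0 of 2 measured members were lower, beside 3.96% of all genes.

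Over all cells, the members summed to 39.2 CPM in the control and 58.8 CPM in Smo-cKO, a ratio of 1.50 (1.41 to 1.59). With the shallow Smo-cKO cells left out it was 1.27 (1.19 to 1.35). Gad1, at 1.39 and 3.71 CPM (2.66, 2.00 to 3.57), was 1 of 9 members past 2-fold, beside 6.7% of all genes higher, and 0 of 9 were lower, beside 1.73%. Gsx2 ran the other way, from 3.52 to 1.95 CPM (0.553, 0.421 to 0.722). The bMIPC-like cells held 152 of its 182 UMIs in the control and 58 of 82 in Smo-cKO. These cells were 13.2% of the control and 4.34% of the Smo-cKO library, and within them Gsx2 had a ratio of 1.10 (0.795 to 1.49). Cells with at least 3 members numbered 162 in the control (1.54%, 1.32 to 1.80) and 247 in Smo-cKO (3.43%, 3.02 to 3.87). IN-like cells were 56.8% of these in the control and 89.5% in Smo-cKO.

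The IN-like clusters carried different members. The Npas1-led cluster (90 control and 187 Smo-cKO cells) also had Prox1, Adarb2 and Htr3a raised, genes of interneurons from the caudal eminence. The Lhx6-led cluster (74 and 102 cells) had Sst, Npy and Nxph1, genes of interneurons from the medial eminence. Sp8 was at 175 CPM in control and 241 CPM in Smo-cKO cells of the Npas1-led cluster, and at 0 and 3.14 CPM in the Lhx6-led one. Sp9 was the reverse, at 36.1 and 93.2 CPM against 172 and 311 CPM. Dlx1 was at 409 and 622 CPM in the Npas1-led and at 182 and 345 CPM in the Lhx6-led cluster, and Gad2 at 83.4 and 198 against 229 and 380 CPM.

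By the 2-fold rule, Dlx1 and Sp8 (2 of 7, beside 5.38% of all genes) were higher and Gad2 and Sp9 (2 of 7, beside 3.76%) lower in the Npas1-led cluster of the control. In Smo-cKO, Sp8 (1 member, beside 6.77%) was higher and Sp9 (1 member, beside 4.85%) lower, with ratios of 1.80 for Dlx1 and 0.522 for Gad2. Dlx2 and Dlx5 lay closer together: Dlx2 at 336 and 481 CPM against 257 and 420 CPM, and Dlx5 at 158 and 233 against 147 and 226 CPM.

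**Figure D5:**
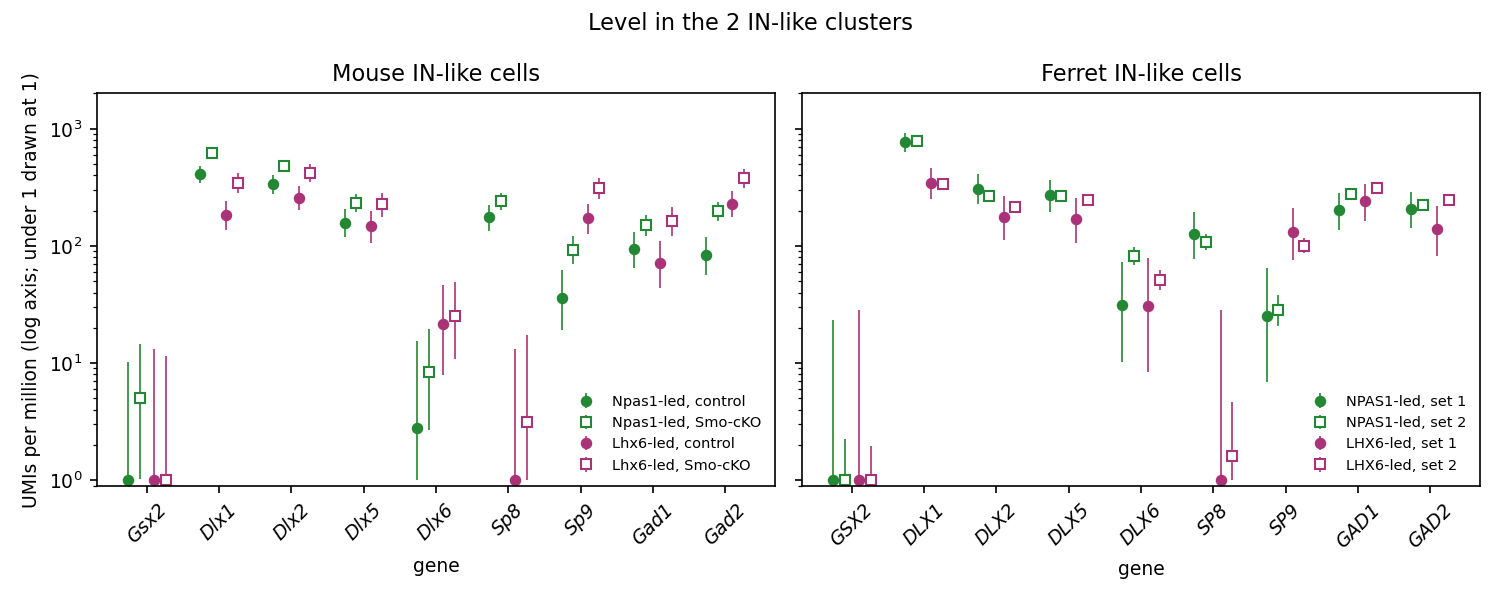
Points give the level (CPM, log axis, values under 1 drawn at 1) of each gene in the Npas1-led (green) and the Lhx6-led (purple) IN-like cluster, for the mouse libraries on the left and the ferret barcode sets on the right, with exact 95% intervals of counting error. Sp8 lies in the Npas1-led cluster (175 and 241 CPM in the mouse), and Sp9 is higher in the Lhx6-led one (172 and 311 CPM).

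Both clusters had higher member levels in Smo-cKO. The sum was 1295 CPM in control and 2032 CPM in Smo-cKO cells of the Npas1-led cluster (1.57, 1.41 to 1.75), where Gad2 (2.37, 1.58 to 3.67) and Sp9 (2.58, 1.39 to 5.14) were 2 of 7 members past 2-fold, beside 4.16% of all genes, and 0 of 7 were lower, beside 3.3%. In the Lhx6-led cluster the interval of the summed ratio was 1.51 to 2.00, and Gad1 (2.28, 1.34 to 4.03) was 1 of 6 higher, beside 4.81%, and 0 of 6 were lower, beside 3.12%.

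Within control IN-like cells, Sp8 was found in 34.0% of cells with Dlx1 against 8.57% of those without, and in 14.5% of cells with Gad2 against 28.4%. The enzymes were also compared in the same cells: 24.4% of control IN-like cells with Gad1 also had Gad2 against 42.3% of those without Gad1, and 50% against 50.8% in Smo-cKO.

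Other genes of the lineage were read from lists of 53 genes, of which 43 were measured in IN-like cells. Of these, 3 were at least 2-fold higher and 3 lower in Smo-cKO, beside 3.17% and 3.23% of all genes, with a median log2 ratio of 0.45. None of 10 progenitor and specification genes and none of 10 genes of GABA handling and migration passed (0 of 10 in each), with Slc32a1 at 1.83 and Erbb4, the neuregulin receptor, at 1.41. Among genes of the lateral eminence and olfactory bulb type, Etv1 was higher (2.43), and Meis2, from 600 to 209 CPM, and Pax6 (0.468) were lower. Of caudal eminence genes Npas1 (2.14) and Vip, with 0 and 27 UMIs, were higher, and of medial eminence genes Sst was lower (0.368). In bMIPC-like cells 1 of 36 was higher, Nr2f2 (3.13), and 4 were lower: Gsx1 (0.239), a homeobox relative of Gsx2, Ebf1 (0.391), Synpr (0.232) and Mef2c (0.405). Of all genes, 3.36% were higher and 3.07% lower in that class.

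The ferret cortex gave a second view of the same genes. IN-like cells numbered 136 in set 1 and 1296 in set 2, with medians of 1915.5 and 2639.5 UMIs, and 38 barcodes were shared between the sets. The members summed to 1622 CPM (1479 to 1776) and 1760 CPM (1716 to 1804). DLX1 was at 579 and 547 CPM, DLX2 at 250 and 241 CPM, DLX5 at 225 and 257 CPM, and GAD1 at 218 and 294 CPM, while GSX2 had no UMI in IN-like cells. DLX6 was found in 6.62% and 15.7% of the cells. Of the measured members 8 of 8 were higher in IN-like than in RG-like cells (16.5% of all genes) and than in PyN-like cells (7.86%). DLX6 and SP9 reached 20 UMIs only through the IN-like cells in both comparisons, so that their part of these counts is a description only.

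The split between IN-like clusters was also seen in the ferret. The NPAS1-led cluster, whose first gene was ADARB2 (77 and 622 cells), had SP8 at 126 and 108 CPM against 0 and 1.61 CPM in the LHX6-led cluster, whose first genes were NXPH1 and SST (59 and 674 cells). SP9 was at 25.1 and 28.4 CPM against 131 and 101 CPM, and DLX1 at 767 and 782 CPM against 348 and 338 CPM. Over both sets DLX1 (2.30) and SP8 were 2 of 8 members higher in the NPAS1-led cluster, beside 6.54% of all genes, and SP9 (0.274) was 1 of 8 lower, beside 5.5%. No ferret cluster met the rule for a bMIPC-like name. GSX2 was highest in an unnamed cluster led by OLIG1 and PDGFRA (64 and 114 cells), which held 33 of its 73 UMIs, with 23.7 and 58.0 CPM in 7.81% and 17.5% of the cells. RG-like cells had GSX2 at 2.01 and 2.86 CPM. In the same class SP8 was at 9.65 and 14.6 CPM. Unlike in the mouse, microglia-like cells carried 68.2 and 87.9 CPM of the members (19 and 24 UMIs), more than the 48.7 and 54.0 CPM of RG-like cells. By this class the summed level of ferret RG-like cells is not above background. PyN-like cells, the other background class, were lower than RG-like cells, at 15.7 and 18.3 CPM. SP8 was at 0 CPM in microglia-like cells of both sets. An unnamed cluster led by SST and DLX1 (101 and 146 cells) had members at 441 and 141 CPM.

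The genes with the pattern most like the sum of the members were named by the correlation of log2(CPM + 10), given as a description over 33 points of 17 mouse clusters and 2 libraries and 37 points of 20 ferret clusters and 2 sets. These points share libraries and depth. In the mouse they were Dlx6os1 (0.935), Erbb4 (0.930), Tceal6 (0.928) and Zcchc12 (0.910). In the ferret they were LOC101683827 (0.981), ERBB4 (0.964), NPAS1 (0.947) and SLC32A1 (0.928). Gsx2 stood apart, with Helt (0.936) and Olig1 (0.898) nearest in the mouse and OLIG2 (0.963) and APOD (0.955) in the ferret, and with correlations of 0.179 to Dlx1 and -0.072 to Gad1. The correlation of Dlx5 with Gad1 was 0.995. Sp8 was nearest to Nr2f2 (0.907), and Sp9 to Neb (0.978) and Gria4 (0.951).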

How the data were processed

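The authors aligned and counted the droplet libraries with Cell Ranger, whose version is not given in the sources used here, and deposited 1 table per species of raw UMI counts, not normalized. The submitters' processing notes name mm10, StringTie and Seurat 3. The column names carry a barcode suffix and no sample: mouse suffixes were assigned by their stated cell numbers, and ferret suffixes were kept as 2 sets. Cells with 750 to 5000 genes and under 10% mitochondrial UMIs were kept. Mouse libraries were joined by anchor integration in Seurat 5.3.0 (R 4.3.3, Matrix 1.6.5), with 2000 variable genes, 30 dimensions and resolution 0.8, and the 9 genes and Dlx6os1 were left out of the clustering. The ferret sets were clustered together without integration. A marker counted for a cluster at a log2 fold of at least 1 (10 CPM added) in at least 10% of its cells, and a class name needed at least 3 markers and no larger number of another class. No doublet caller was run. The names were rebuilt and may differ from those of the study.

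Counts were summed per class and library with pandas 2.3.3, scipy 1.17.1 and numpy 2.4.6 and drawn with matplotlib 3.10.9 (python 3.11.15). Intervals are Clopper-Pearson for shares, exact Poisson for CPM and exact conditional binomial for ratios, at 95%, and cover counting error only. Where no cell had a UMI, 3 cells of those counted were taken as the upper limit. Kept libraries held 51657121 (control) and 42057782 (Smo-cKO) UMIs. Interval and ratio calculations were tested on simulated data. The members and lists were chosen with earlier results of these data known. The rule for named genes took all 9 members, the 10 genes most like their sum and the 2 most like each member (at least 200 UMIs, points of at least 50 cells), of which the first are given, and the lineage genes with the largest folds or highest levels. Eomes and Neurod6 lie outside this rule, and their values were known when they were named. Some genes that the rule takes are not reported here. Coordinates and coding sequences are from the GENCODE annotation of GRCm38, the assembly also called mm10. Alternatives were other resolutions (0.4 and 1.6), no integration, members kept in the clustering, other cell limits, at least 2 UMIs per cell, thinning to 2000 UMIs, CPM without mitochondrial and ribosomal genes, and 1 CPM added. Thinning used only cells with at least 2000 UMIs, which were 10498 control and 6926 Smo-cKO cells.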

Additional observations from a re-analysis of the deposited data

Results flagged for a closer look

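The summed level of the members had a ratio of Smo-cKO to control above 1 in IN-like cells (1.65, 0 of 8 measured members past 2-fold). It was below 1 in RG-like cells (0.519, 3 of 5 at least 2-fold lower). Of all genes, 3.17% were higher and 3.23% lower in IN-like cells, and 3.69% higher and 2.7% lower in RG-like cells. With 1 library per genotype the difference between the ratios was not tested.

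Cells outside the limits on genes and mitochondrial reads, which no comparison used, also held member UMIs. They summed to 34.9 CPM in 26 control cells (22 UMIs), 47.3 CPM in 387 Smo-cKO cells (58 UMIs) and 237 CPM in 240 cells of ferret set 2 (64 UMIs).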

How the results depend on the processing

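No paired analysis was possible because each genotype had 1 library, which leaves no replicates to pair. Of 77 alternative values of the summed levels, ratios, counts and shares of cells with several members, 66 stayed within counting error or 1.5 times the count and 11 moved. A change of direction could be recorded only for a ratio whose main interval left out 1, and none was. Counts, shares and the other ratios could not show one. In RG-like cells the summed ratio was 0.666 and the number of members lower was 1 at resolution 1.6, and over the clustering and denominator choices it ranged from 0.419 to 0.666. The summed ratio ranged from 1.59 to 1.65 in IN-like and from 1.05 to 1.12 in bMIPC-like cells. Alternatives chosen after seeing the data gave 1.28 for IN-like cells without a PyN-IPC marker UMI and, with Smo-cKO cells shallower than any control cell left out, 1.27 over all cells and 2.89% of Smo-cKO cells with at least 3 members. The share of cells with several members was 2.64% in control and 4.22% in Smo-cKO for at least 2 members, 0.838% and 2.15% for at least 4, and 0.635% and 1.94% for at least 3 after thinning. Of the single shares of members by class, 59 of 72 moved when 2 UMIs were required and 43 of 72 after thinning in the mouse, and 19 of 54 after thinning in the ferret. The number of control RG-like cells lay between 682 and 2007 across settings. Low counts limit Dlx6 in all classes and Gad1 and Dlx5 outside IN-like cells, where a few UMIs set each value. The part of depth in these low counts was not tested.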
